A study of Homo sapiens with 8 samples.

Results

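Dense groups of p63 regions are places where 3 or more regions bound by this transcription factor lie close together. The lists of 2 lines were joined into 1 set of 15267 distinct regions, the regions of each chromosome were sorted by midpoint, and neighbours with midpoints 12.5 kb or less apart were joined. This gave 348 groups of 3 or more regions with 1134 regions in them, or 7.43% of the set. The other 14133 regions were 2744 in pairs and 11389 single ones. A region was counted as listed in both lines when its start and end were identical in the 2 lists. How the lists came to share boundaries is not stated in the sources used here. Over the whole set 29.1% of regions were listed in both lines, 61.4% in CAL27 only and 9.42% in SCC13 only. Since positions chose the members, their crowding is a description and not a finding. Width and the line or lines in which a region was listed were not used by the rule.

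Binding was measured by chromatin immunoprecipitation and sequencing (ChIP-seq) in established lines of human squamous cell carcinoma, CAL27 and SCC13, labelled wild type and untreated. Each line had 2 samples of p63 immunoprecipitation and 2 samples titled none, and both p63 samples of a line stood behind its single list, so no spread between replicates could be computed. CAL27 was grown in a serum-containing medium and SCC13 in a serum-free keratinocyte medium with BPE, EGF and added calcium, so line and medium cannot be told apart. Of the 13829 CAL27 regions 1081 were members, and of the 5886 SCC13 regions 424 were. No depth, height or score accompanied a region, so absence from a list does not show absence of binding.

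The protein p63 is a member of the p53 family and is needed for stratified epithelia such as the epidermis. It binds DNA as a tetramer at response elements made of paired half-sites, often in enhancers far from promoters. Enhancers of genes that define a cell type often lie in clusters, and joining regions 12.5 kb apart is a customary way of collecting them. The groups here are defined by distance alone, and whether any of them is an enhancer was not analysed here. Genes named with a cytogenetic band are background on that band, picked with the results known. A band spans megabases, and the distance from a group to a gene was not measured. Positions are in hg19.

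Most groups were small. Groups of 3 numbered 276, or 79.3% of all, and 59 groups held 4 regions, 9 held 5, 3 held 6 and 1 held 7. The median group spanned 13823 bp from its first start to its last end, with quartiles of 10101 and 17569 bp and a range from 3152 to 39158 bp. Within the span the regions themselves covered a median of 22.0%, from 8.89% to 82.6%. Neighbouring members had midpoints a median of 5267 bp apart, with quartiles of 3014 and 8712 bp, and were separated edge to edge by 69 to 11904 bp. No regions of the joined set overlapped each other. At the limit of the rule, the widest gaps inside a group were 12493 and 12486.5 bp, and the narrowest gaps from a group to a region left out were 12544.5 and 12549.5 bp. In 24 groups the widest gap exceeded 12000 bp.

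The group with the most regions lay on chromosome 1 at 3597452 to 3634369, in 1p36.32, the band of TP73, a paralog of TP63. Its 7 regions had widths, in order along the chromosome, of 776, 558, 1470, 1709, 2084, 714 and 979 bp. The first 4 and the last were listed in both lines, and the 2084 and 714 bp regions between them were listed in CAL27 only. The widest region of the group was therefore one that SCC13 lacked. A second group in that band, on chromosome 1 at 3376484 to 3408939, held 5 regions, of which 1 was listed in both lines and 4 in CAL27 only.

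Groups of 6 were found in 3 bands. In 6p12.1, the band of DST, which encodes a plakin of hemidesmosomes, the group at 56507331 to 56533555 had widths of 1433, 1098, 869, 759, 987 and 745 bp. Its first 2 regions, also its widest, were listed in both lines, and the 4 that followed were in CAL27 only. In 6p24.3, the band of TFAP2A, an epidermal transcription factor, and of the desmoplakin gene DSP, the group at 10394863 to 10432139 opened with a 737 bp region listed in SCC13 only. Regions of 615 and 1183 bp in both lines came next, followed by 1028 and 1074 bp regions in CAL27 only and an 800 bp region in both. It was the only 1 of the 13 groups with 5 or more regions that held a SCC13-only region. In 19q13.13 the listing alternated along the group at 38456538 to 38495695. Regions of 985, 742 and 824 bp were in both lines, and the regions that followed each of them, of 909, 500 and 1629 bp, were in CAL27 only. This group had the longest span of all, 39158 bp.

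The group at 36634538 to 36650984 in 6p21.2, the band of CDKN1A, a cell cycle inhibitor induced by p53 family members, held 5 regions in 16447 bp. Regions of 945, 610 and 1048 bp were listed in both lines, and those of 539 and 736 bp, both in the interior, were in CAL27 only. The 610 and 539 bp regions had midpoints 935.5 bp apart. On chromosome 8 at 49608580 to 49626684, in 8q11.21, the band of SNAI2, a zinc finger repressor of epithelial genes, all 5 regions were in both lines. They were 1018, 1269, 858, 1243 and 701 bp wide, with midpoint gaps from 2576.5 to 5268.5 bp. This was the only group of 5 or more regions listed whole in SCC13.

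Other groups of 5 had fewer regions in SCC13. On chromosome 11 at 92567301 to 92586737 (11q14.3), the 885 and 921 bp regions were in both lines, and the 555, 462 and 509 bp regions in CAL27 only. On chromosome 3 at 52079479 to 52101576 (3p21.2), widths fell along the group from 1451 to 592 bp, and the 2 widest regions, of 1451 and 1238 bp, were those in both lines. In 14q32.2, the band of BCL11B, a zinc finger factor of skin and T cells, the group at 99352980 to 99376516 had 935 and 1559 bp regions in both lines and 1079, 956 and 1206 bp regions in CAL27 only. At 1491414 to 1515182 on chromosome 7 (7p22.3), a 1351 bp region was in both lines and the other 4, of 801 to 2048 bp, in CAL27 only. Of the 13 groups with 5 or more regions, 7 had 3 or more regions in the SCC13 list and 4 lay on chromosome 6.

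**Figure D1:**
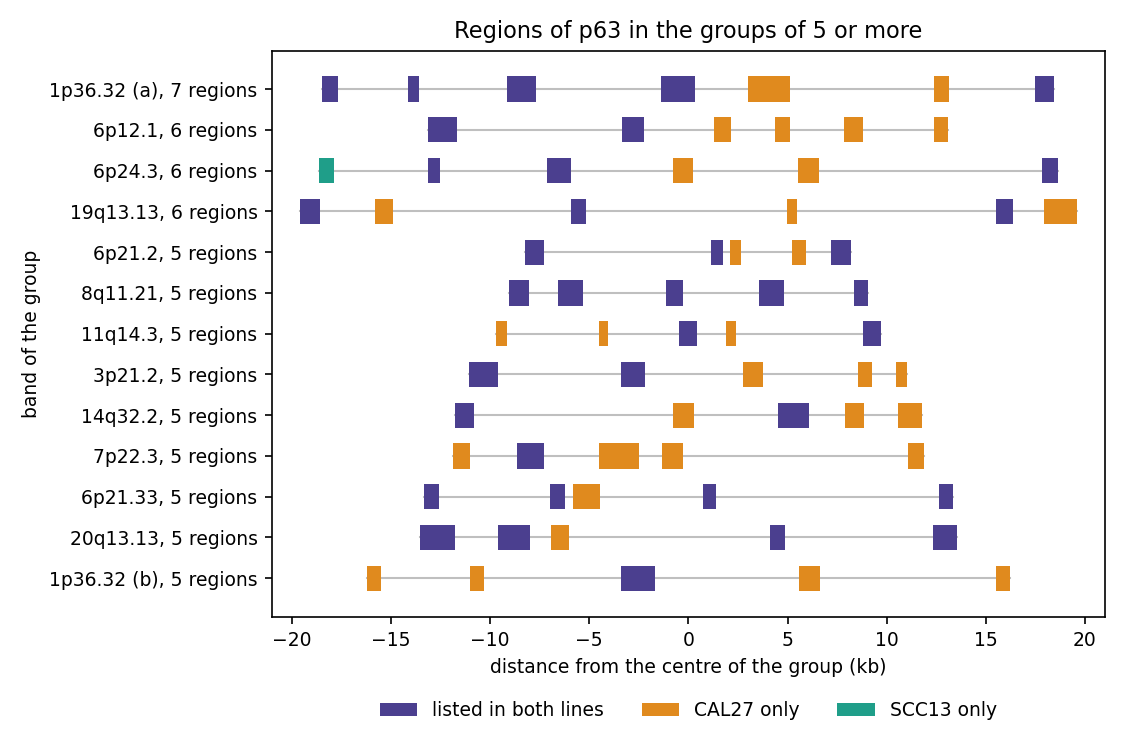
Each row is 1 of the 13 groups with 5 or more p63 regions, named by its band, with the distance from the centre of the group in kb on the horizontal axis; blocks are regions drawn to scale, coloured by the line or lines that list them. In 8q11.21 all 5 regions were in both lines, and the 1 region listed in SCC13 only is at the left end of the 6p24.3 group.

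Like the whole set, members were mainly regions listed in CAL27 only or in both lines. Of the 1134 members, 371 were listed in both lines, or 32.7% (95% exact binomial interval 30.0 to 35.5), against 29.1% of the whole set and 28.8% (28.1 to 29.6) of the regions outside groups. CAL27-only regions made up 62.6% of members (59.7 to 65.4), against 61.4% of the whole set. SCC13-only regions made up 4.67% of members (3.52 to 6.07), against 9.42% of the whole set. Read by listing, 8.34% of the regions in both lines were members (7.54 to 9.19), as were 7.57% of CAL27-only regions (7.04 to 8.12) and 3.69% of SCC13-only regions (2.77 to 4.79). Single regions accounted for 84.1% of the SCC13-only class and for 72.3% of the regions in both lines. These intervals cover counting error only and treat regions as independent, which neighbours in a group are not. With 1 list per line no test was made of these shares. The CAL27 list is the longer one, so a region has more CAL27 than SCC13 neighbours to be joined with, and the part of list length in these shares was not tested.

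Within the SCC13 list, the share of regions also found in CAL27 stood higher among members than outside groups. Of the 424 SCC13-listed members 371 were also in CAL27, or 87.5% (84.0 to 90.5), compared with 74.6% (73.5 to 75.8) of the 5462 SCC13 regions outside groups. In the CAL27 list the shares were 34.3% (31.5 to 37.2) of the 1081 members and 32.0% (31.2 to 32.8) of the 12748 others. The share of members exceeded that of other regions by 12.9 points in SCC13 and by 2.34 points in CAL27, and the difference between these contrasts was not tested.

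The listing was next set out by the number of regions joined. Regions in both lines made up 28.2% of single regions, 31.3% of pairs, 29.7% of groups of 3 (26.6 to 33.0), 37.3% of groups of 4 (31.1 to 43.8) and 52.9% of groups of 5 or more (40.6 to 64.9). The last value rests on 37 of 70 regions in 13 groups, which held from 1 to 5 such regions each, and 4 of these groups supplied 18 of the 37. Regions of a group are not independent, so its interval is too narrow, and the difference between group sizes was not tested. SCC13-only regions made up 10.6% of single regions, 6.41% of pairs, 4.71% of groups of 3 and 5.51% of groups of 4, and 1 of the 70 regions in larger groups.

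**Figure D2:**
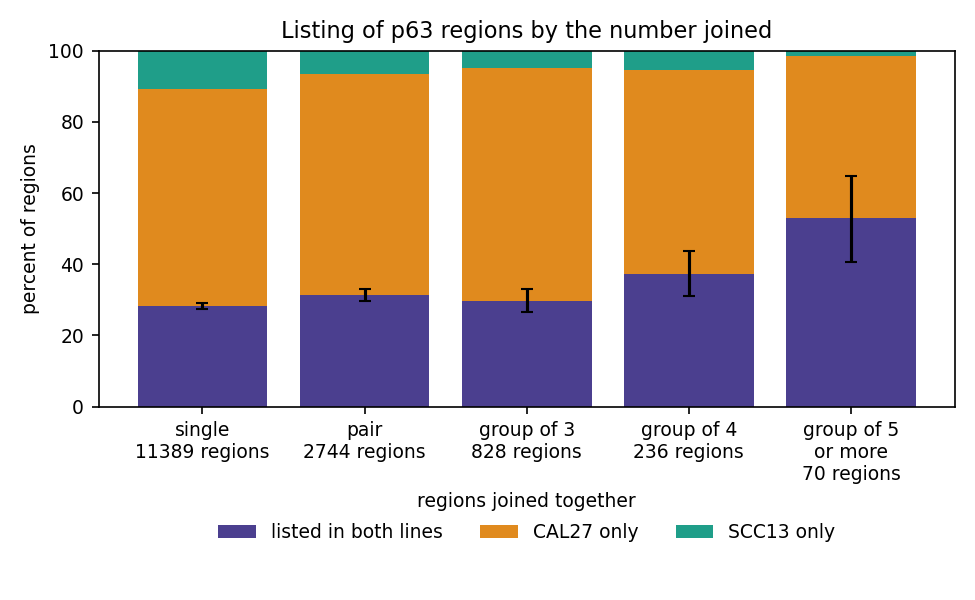
Bars give the percent of p63 regions listed in both lines, in CAL27 only and in SCC13 only, for single regions, pairs and groups of 3, 4 and 5 or more; black error bars are exact 95% binomial intervals of the share in both lines. That share was 28.2% of single regions and 52.9% of the 70 regions in groups of 5 or more.

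Seen as whole groups, a mixture of regions in both lines and in CAL27 only was the commonest makeup, with 202 of 348 groups or 58.0%. In 88 groups, or 25.3%, all regions were CAL27-only, and in 9 all regions were in both lines. No group was made of SCC13-only regions alone, and none lacked a CAL27 region. Of the whole set, 61.4% of regions were CAL27-only, 29.1% in both lines and 9.42% SCC13-only. What makeup these shares alone would give was not computed. A SCC13-only region occurred in 49 groups, of which 45 held 1 and 4 held 2. In 309 groups (88.8%) the CAL27 list supplied 3 or more of the regions, and in 29 (8.33%) the SCC13 list did. Both lists supplied 3 or more in 25 groups. In 35 groups neither did, so at least these passed the rule only through the joining of the lists. Grouped alone, the SCC13 list gave 25 groups and not 29, because its regions in a joined group can lie more than 12.5 kb apart. SCC13 had exactly 1 region in 135 groups and 2 in 96, so most groups that SCC13 entered held 1 or 2 of its regions.

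**Figure D3:**
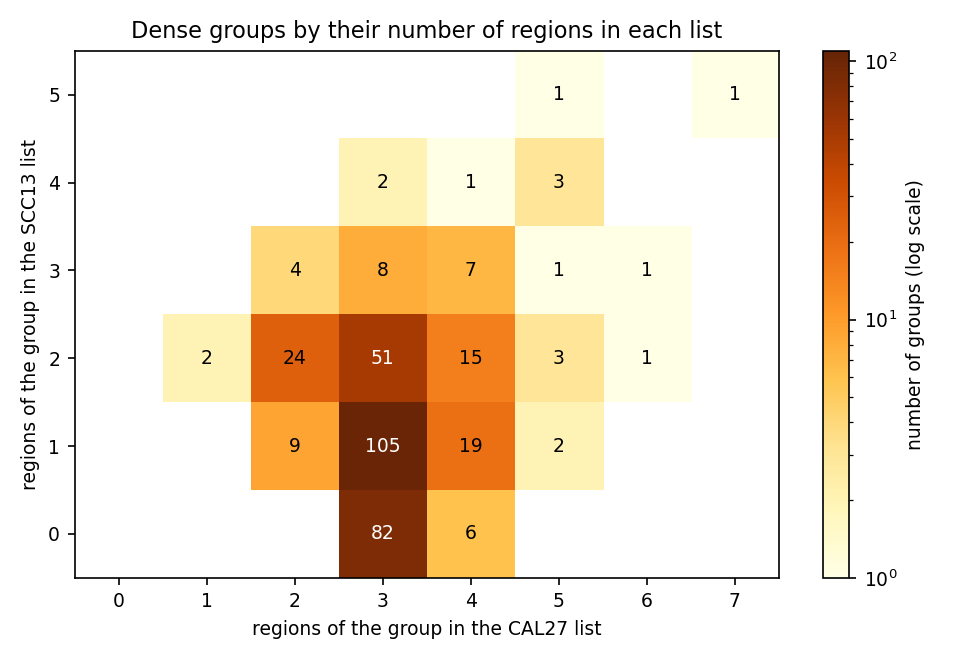
Each cell gives the number of dense groups with a given number of regions in the CAL27 list (horizontal axis) and in the SCC13 list (vertical axis), coloured on a log scale. The fullest cells are 3 CAL27 regions with 1 SCC13 region, 105 groups, and 3 CAL27 regions with none in SCC13, 82 groups.

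Groups wholly listed in both lines are, after the 8q11.21 group, led by 4 regions on chromosome 7 at 43607969 to 43626453 (7p13), with widths of 674, 510, 1082 and 886 bp. The first 2 of these had midpoints 879 bp apart, the smallest gap inside any group. In 4q13.3, the band of several EGF family ligands including amphiregulin, the group at 75275837 to 75282284 held regions of 702, 804 and 1031 bp. On chromosome 1 at 27848792 to 27855301 (1p36.11), the 3 regions were 1018, 1314 and 943 bp wide. In 1p34.2, the band of the glucose transporter gene SLC2A1, the group at 43401825 to 43409321 held regions of 1516, 1502 and 769 bp. The 3-region groups named here spanned 6448 to 7497 bp, well under the median span of 12824 bp for groups of 3, but the naming rule took the shortest.

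Groups absent from SCC13 held at most 4 regions. The shortest of the 6 such groups with 4 CAL27-only regions was on chromosome 20 at 49045851 to 49056217, in 20q13.13, the band of CEBPB, a factor of keratinocyte differentiation; its regions were 702, 1152, 556 and 771 bp wide. The same band holds a group of 5 at 48756392 to 48783500 with 4 regions in both lines. On chromosome 12 at 6381289 to 6397769 (12p13.31) the 4 regions were 1881, 1209, 482 and 787 bp wide. The group on chromosome 7 at 105688561 to 105706127 (7q22.3) held a 1978 bp region between regions of 412, 1192 and 1032 bp. Further such groups lay on chromosome 1 at 6410374 to 6428672 (1p36.31) and on chromosome 2 at 235584773 to 235604584 (2q37.1). Several of these regions were thus wider than the median of 928 bp for regions in both lines outside groups.

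SCC13-only regions were nowhere more than 2 to a group. The group on chromosome 11 at 34674980 to 34688330, in 11p13, the band of EHF and ELF5, epithelial ETS factors, and of the adhesion receptor CD44, held a 1049 bp CAL27-only region followed by SCC13-only regions of 866 and 2196 bp. The last is the widest SCC13-only member. At 61732328 to 61749154 on the same chromosome (11q12.3), SCC13-only regions of 629 and 510 bp flanked a CAL27-only region of 755 bp and a 947 bp region in both lines. In 17q25.1, the band of the hemidesmosomal integrin gene ITGB4, the group at 74575661 to 74594299 opened with SCC13-only regions of 889 and 525 bp. A 404 bp CAL27-only region and a 991 bp region in both lines completed it. On chromosome 1 at 113169412 to 113189759 (1p13.2), a 1662 bp CAL27-only region preceded SCC13-only regions of 706 and 876 bp. In 6q23.3, the band of PERP, a desmosomal target of p63, the group at 138424340 to 138429145 held 1 region of each listing, of 1166 bp in CAL27 only, 1433 bp in SCC13 only and 802 bp in both. Here the SCC13-only region was the widest.

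In each listing class the median width of members exceeded that of other regions, by 6.79 to 11.1%. Members listed in both lines had a median width of 1008 bp (95% interval 947 to 1037), against 928 bp (917 to 942) outside groups, a ratio of 1.09. For CAL27-only regions the medians were 796.5 bp (771 to 832) and 717 bp (710 to 724), a ratio of 1.11. For SCC13-only regions they were 629 bp (510 to 737; 53 members) and 589 bp (575 to 611), a ratio of 1.07, with overlapping intervals. Over all listings the median was 856 bp in groups and 767 bp outside. Inner members, with a neighbour on both sides, had a median of 889 bp (852 to 929) and outer members one of 832 bp (800 to 864), with intervals that overlap. Width is not a measure of how strongly p63 bound.

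Width moved with the listing. Regions in both lines had the same boundaries in each list, so their widths may not be separate measurements from the 2 lines. Among regions wider than the median of the whole set, 773 bp, those in both lines made up 41.8% (38.0 to 45.6) of members and 41.6% (40.5 to 42.8) of other regions. Among the narrower regions the shares were 19.5% (16.0 to 23.4) and 16.5% (15.6 to 17.3). The share of SCC13-only regions stood lower in groups within both width classes, at 2.23% (1.25 to 3.65) against 5.55% (5.02 to 6.11) for the wider and 8.24% (5.90 to 11.1) against 13.9% (13.1 to 14.7) for the narrower. In the 238 groups that mixed regions in both lines with others, the widest region was one in both lines in 142 groups, or 59.7%, while such regions were 43.0% of the regions in those groups. The widest was a CAL27-only region in 91 of these groups and a SCC13-only region in 5.

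**Figure D4:**
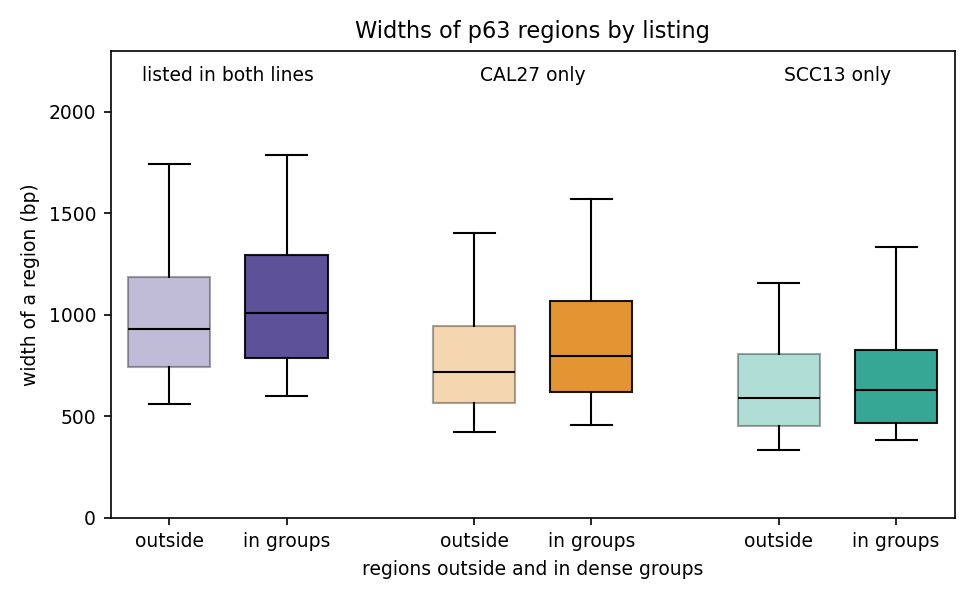
Boxes show the widths of p63 regions in bp, outside (pale) and in dense groups (dark), for each listing; boxes span the quartiles, lines are medians and whiskers reach the 5th and 95th percentiles. The medians in groups were 1008, 796.5 and 629 bp, each above that of the same listing outside.

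The 5 widest members were all in groups of 3, which held 828 of the 1134 members. A 3335 bp region on chromosome 1 at 32039509 to 32042843 (1p35.2) and a 2764 bp region on chromosome 5 at 36450706 to 36453469 (5p13.2) were both listed in both lines. Next came CAL27-only regions of 2638 bp on chromosome 6 at 33718207 to 33720844 (6p21.31) and of 2611 bp on chromosome 11 at 33654342 to 33656952 (11p13). A region of 2604 bp on chromosome 14 at 105433132 to 105435735 (14q32.33) was again in both lines. The median width was nevertheless lowest in groups of 3, at 840 bp. It was 930.5 bp in groups of 4, 921 bp in groups of 5, 889 bp in groups of 6 and 979 bp in the group of 7.

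The most tightly packed group by mean midpoint gap was on chromosome 2 at 17994156 to 17997307 (2p24.2), where CAL27-only regions of 629, 590 and 498 bp filled a span of 3152 bp. It was followed by groups on chromosome 1 at 16157017 to 16161061 (1p36.21) and on chromosome 21 at 43349250 to 43352877 (21q22.3), each with 1 region in both lines and 2 in CAL27 only. In these 3 groups no gap between midpoints exceeded 1671.5 bp.

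Neighbours inside groups had the same listing in 406 of 786 pairs, or 51.7%. Over all neighbours of the set the percentage was 52.8 at distances up to 5 kb, 53.4 from 5 to 12.5 kb, 49.7 from 12.5 to 50 kb, 49.0 from 50 to 200 kb and 47.2 beyond 200 kb. The value inside groups, whose pairs are part of the close ones, lay between those of neighbours within 12.5 kb and those farther apart, and no test was made.

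Groups occurred on all 22 autosomes and on X. Chromosome 1 had the most, 49 groups with 162 regions, and chromosome 21 had the highest share of its regions in groups, 12.3% (8.32 to 17.3). The share was 10.6% (9.09 to 12.2) on chromosome 1 and 10.2% (7.66 to 13.3) on chromosome 14. It was lowest on chromosome 4, at 2.53% (1.42 to 4.13), on X, at 2.74% (1.26 to 5.13), and on chromosome 13, at 2.93% (1.53 to 5.07). Those 3 chromosomes also had few p63 regions per Mb, 3.11, 2.12 and 3.55. Chromosome 18 had similarly few, 3.36 per Mb, but 6.11% (3.53 to 9.73) of its regions were in groups. In regions per Mb chromosome 21, with 4.74, lay below chromosome 17, with 7.85 per Mb and 9.11% of its regions in groups. These densities are over the full chromosome length, which includes short arms nearly without regions, such as 21p with 1 region. Over the long arms outside the centromere bands, 21q had 6.71, 17q 8.79 and 13q 4.28 regions per Mb. Position chose the members, so a crowded chromosome gives more groups by the rule itself. The pale, gene-rich G-negative bands of Giemsa staining held 68.3% (65.5 to 71.0) of members and 55.7% (54.8 to 56.5) of other regions. In the darkest bands the values were 5.11% (3.91 to 6.56) and 9.45% (8.98 to 9.95). Members enter only in groups of 3 or more, so the intervals by chromosome and by stain are too narrow. On chromosome 21, for example, the 28 members are 9 groups, and on X the 9 members are 3 groups.

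**Figure D5:**
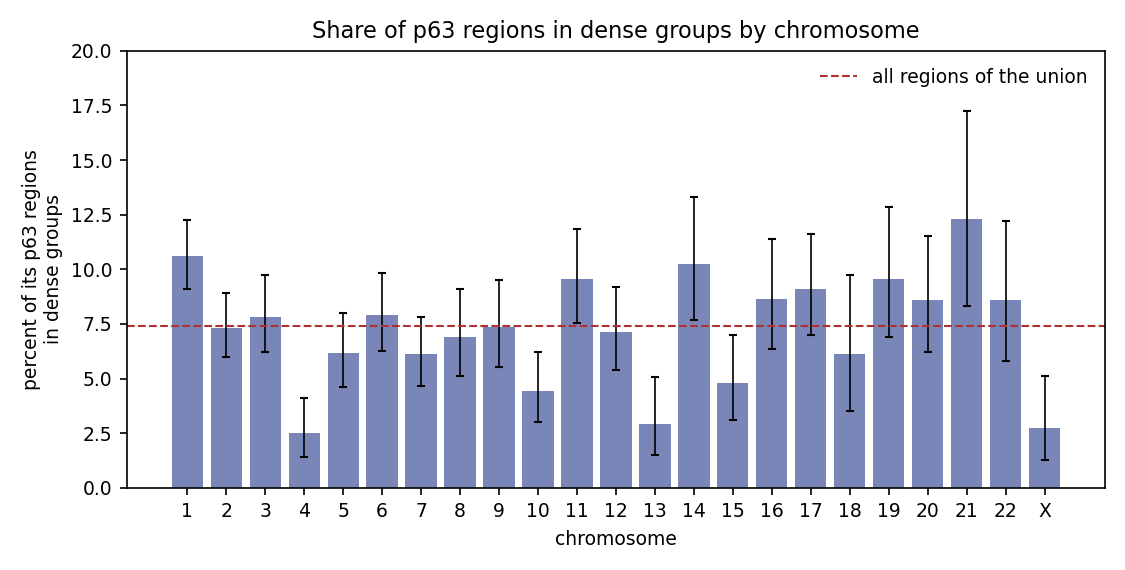
Bars give the percent of the p63 regions of each chromosome that are in dense groups, with exact 95% binomial intervals, and the dashed line marks the 7.43% over all regions. Chromosomes 4, 13 and X lie lowest, between 2.53% and 2.93%, and chromosome 21 lies highest at 12.3%. Regions of a group are not independent, so the intervals are too narrow.

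A few bands held many groups. Groups were found in 232 of the 786 bands with a p63 region, and 10 bands with 4 or more groups each held 50 of the 348. The most, 9 groups with 27 of the band's 101 regions, were in 1q32.1, the band of the desmosomal plakophilin gene PKP1 and of ELF3, an epithelial ETS factor. Of its groups 2 held 4 regions. The shorter of these, at 201976864 to 201992549, had CAL27-only regions of 1064, 1506 and 962 bp and a SCC13-only region of 511 bp, and the other, at 200863595 to 200887061, had 1 region in both lines and 3 in CAL27 only. In 21q22.3, the band of RIPK4, a kinase of epidermal differentiation, there were 7 groups. Of the 47 regions in 17q21.2, the band of the type I keratins and of the plakoglobin gene JUP, 21 lay in 6 groups, or 44.7%. Of these groups 3 held 4 regions. The shortest of the 3, at 39942657 to 39957361, began with a 1319 bp SCC13-only region and went on with 620 and 1076 bp regions in CAL27 only and an 898 bp region in both lines. The other two, at 38689266 to 38704456 and 39495256 to 39511371, each had 2 regions in both lines and 2 in CAL27 only. Type II keratins lie in 12q13.13, where 3 groups held 9 of 38 regions. Over the whole set 7.43% of regions were in groups. The band 17q21.2 had 18.8 regions per Mb, beside 7.85 over all of chromosome 17. Position chose the members, so a crowded band gives more groups by the rule itself. The bands with the most groups were picked for that number, so their shares are a description and not a finding.

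Some groups lay close to other groups, which describes the same positions that the rule used. No reference for this spacing was computed. With groups within 250 kb of each other counted together, 65 groups fell into 30 sets, 4 of which had 3 or more groups. The largest set was 4 groups with 13 regions over 319.9 kb in 21q22.3, at 43032992 to 43352877, with 4 regions in both lines and 9 in CAL27 only. Sets of 3 groups were found in 17q21.2, over 180.1 kb at 39777302 to 39957361, in 14q32.33, over 131.3 kb, and in 11p13, over 111.1 kb at 34606953 to 34718025. The 11p13 set had 1 region in both lines, 6 in CAL27 only and 2 in SCC13 only. Both 1p36.32 groups formed a set of 12 regions over 257.9 kb.

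Bands of genes known from squamous and p53 family biology were then read one by one from a list of 33. That list was written with the largest groups known and so lends no support to their place in the genome. Of the 33 bands 25 held a group (75.8%) and 15 held 2 or more, beside 29.5% of all bands with a region that held a group, though listed bands had a median of 32 regions and all bands one of 16. Hemidesmosome loci were among them: 17q25.1 (ITGB4) had 3 groups with 10 of its 53 regions, and 6p12.1 (DST) had 2 groups with 9 of 30. Over the whole set 7.43% of regions were in groups. In 10q25.1, the band of the hemidesmosomal collagen gene COL17A1, there was 1 group of 3 among 21 regions. No group was found in 18q11.2, the band of LAMA3, which encodes a laminin chain of the basement membrane, although it held 23 regions.

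Receptor, adhesion and transcription factor bands with 2 or 3 groups are described next. In 7p11.2, the band of EGFR, both groups held 4 regions. The one at 55176679 to 55201703 had 3 regions in both lines and 1 in CAL27 only. The one at 55755633 to 55778381 had CAL27-only regions of 1495, 921 and 187 bp and a 932 bp region in both lines; 187 bp is the narrowest width of any member. In 9q34.3, the band of NOTCH1, the larger of 2 groups, at 139511867 to 139530646, held a 1643 bp CAL27-only region and 569, 1141 and 618 bp regions in both lines. In 16q22.1, the band of the cadherin genes CDH1 and CDH3, the larger of 2 groups, at 69019837 to 69030104, had 1 of 4 regions in both lines, and it was the widest at 1165 bp. The larger of 2 groups, at 76342686 to 76356481, in 17q25.3, the band of ZNF750 and FOXK2, a differentiation factor and a forkhead factor, had 858 bp in both lines and 421, 784 and 964 bp in CAL27 only. In 12q13.13 all 3 groups held 3 regions, and the shortest, at 52971839 to 52977085, had a 1128 bp region in both lines between CAL27-only regions of 738 and 621 bp. In 8q22.3, the band of GRHL2, an epithelial grainyhead factor, both groups held 3 regions. The shorter, at 102014568 to 102025279, had an 1886 bp region in both lines and 557 and 528 bp regions in CAL27 only, and the other, at 102056259 to 102076759, had CAL27-only regions throughout.

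Other bands of the list held 1 group or none. In 3q28, the band of TP63 itself, 36 regions gave 1 group of 3, or 8.33% of the regions, beside 7.43% over the whole set. The epidermal differentiation complex lies in 1q21.3, where 59 regions gave 1 group of 3, or 5.08%. A band without a group was the usual case, with 554 of the 786 bands, or 70.5%. No group was found among 34 regions in 7p22.1, the band of FOXK1, the forkhead factor named in the title of the series, among 33 in 12q15, with MDM2, the ubiquitin ligase of p53, or among 22 in 3q26.33, with SOX2, a squamous lineage factor. The same was true of 13q22.1 (KLF5, an epithelial factor), 11q13.3 (CCND1, cyclin D1), 11q22.1 (YAP1, a Hippo pathway coactivator) and 18q21.33 (serpin B genes), with 16 to 21 regions each. The neighbouring band 11q22.2 did hold 1 group of 3, at 102126842 to 102141123, and its distance to YAP1 was not measured. The 8 listed bands without a group held their p63 regions singly or in pairs.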

How the data were processed

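Regions of p63 ChIP-seq were used for CAL27 and SCC13 (4 groups of 2 samples, p63 and none in each line). The deposited lists, 1 per line, give chromosome, start and end in bp and no score; per the labels each belongs to both p63 replicates. Cells were crosslinked with 1% formaldehyde for 10 min and 10 ug of p63 antibody was used, per the labels' protocols. Bowtie2, SAMtools 1.8, MACS2 and the build hg19 are named, without roles, per the submitters' processing notes. How peaks were thresholded, replicates merged and the none samples used is not given in the sources used here. Library depth is unknown.

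Identical rows were counted once, and positions are printed counted from 1. Bands are those of hg19 in circlize 0.4.16 (R 4.3.3), taken at the middle of a region or group. Shares carry exact Clopper-Pearson intervals and medians exact order-statistic intervals, at 95%; no test was run. Named groups were the 10 with the most regions, the 5 largest in both lines throughout, the 5 largest absent from SCC13, the 5 with the most SCC13-only regions, the 3 tightest, those with the 5 widest members and the largest in each listed band with 2 or more groups, ties going to the shorter span; the results of some listed bands are not reported here. The 3 further groups of 5, sets of nearby groups and width classes were chosen after values were seen. Members, lists and rules were chosen with earlier results of these data known. Gene positions, DNA sequence and motifs were not analysed here, since no hg19 genome or annotation was used. Joining was tested on simulated lists of 7102 regions, where 1360 of 1360 planted groups were found. Planted groups lay much farther apart than the joining distance, so this checked the code and not groups that only just pass or fail the rule. Python 3.11.15, numpy 2.4.6, pandas 2.3.3, scipy 1.17.1 and matplotlib 3.10.9 were used. Alternatives were other joining distances, group sizes and lists.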

Additional observations from a re-analysis of the deposited data

How the results depend on the processing

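No paired analysis was possible because each line has 1 list for both replicates; leaving out a replicate was likewise not possible, and stricter peak thresholds could not be tried without scores. The numbers of groups and members follow the rule. The 348 groups became 96 at a joining distance of 5 kb, 765 at 25 kb, 72 with a minimum of 4 regions, 13 with a minimum of 5 and 25 in the SCC13 list alone, and the 1134 members became 299, 2722, 306, 70 and 82. The 32.7% of members in both lines became 40.8% and 52.9% with minimums of 4 and 5, 90.2% in the SCC13 list alone and 41.8% among members wider than the median of the set. The last 2 values have other base shares. Outside the 348 groups, 74.6% of SCC13 regions and 41.6% of the wider regions were in both lines. The median width of 856 bp became 925 and 917 bp with minimums of 4 and 5 and 944 bp in the SCC13 list alone. Groups with no SCC13 region, 25.3% of all, were 8.33% and 0% with minimums of 4 and 5. The 0% is 0 of 13 groups, with a 95% exact interval up to 24.7%. A larger group has more regions among which a SCC13-listed one can fall, and the part of group size in this was not tested. Groups in the listed bands, 16.4% of all, were 12.4% at 25 kb, 26.4% and 46.2% with minimums of 4 and 5 and 32.0% in the SCC13 list alone. The listed bands held 7.99% of the regions of the whole set. That list was written with the largest groups known, so its higher shares at larger minimums lend no support to their place in the genome. Joining by the distance between edges, leaving out X and using the CAL27 list alone kept every one of the 6 main values within its interval, or counts within 1.5 times. Alternatives for the share of groups without a SCC13 region and for the share in listed bands were added after the data were seen. The SCC13 list alone gives no value for groups without a SCC13 region. Motif content was not run. Unknown depth limits every absence from a list.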
